A study of Mus musculus with 9 samples.

Results

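The genes described here are 24 protein-coding genes whose normalised read counts (CPM, a gene's count divided by the total count of its library and multiplied by 1000000) were lower in every KI/KI library than in any WT or KI/+ library. They were chosen by that pattern, from 6416 protein-coding genes with a total of at least 200 counts over the 9 libraries and out of 56953 genes listed, with a second condition that the mean of the KI/KI libraries was at most 0.67 of the mean of the 6 others. Before 2 genes that belong to other gene groups of the study, Tox and Slc6a11, were set aside, 26 genes met both conditions. The libraries came from Purkinje cell-enriched cerebellar tissue, cut out by laser microdissection from female mice aged 1.5 months, with 3 libraries per genotype. WT mice carried no mutant allele, KI/+ mice carried the Kcnd3 F227del knock-in allele on 1 chromosome, and KI/KI mice carried it on both. The knock-in allele was made by homologous recombination in embryonic stem cells and crossed onto C57BL/6J mice, and it lacks the codon of a single amino acid. No other allele and no treatment is named for any group.

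Kcnd3 encodes Kv4.3, a pore-forming subunit of the A-type potassium channels, which open briefly below the firing threshold and delay the next action potential of a neuron. Purkinje cells are the output neurons of the cerebellar cortex, and loss of their function causes ataxia. Channel subunits are folded in the endoplasmic reticulum (ER) and finished in the Golgi apparatus on their way to the plasma membrane, while adaptors of ubiquitin ligases select proteins for degradation and poly(A)-binding proteins keep mRNAs in translation.

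The shallowest library held 1915339 counts and the deepest 4032357. KI/KI libraries were the deepest group by median (3869190), followed by KI/+ (2718017) and WT (2386344). Of 12 Purkinje cell markers 6 had a mean of at least 10 counts, led by Car8, Calb1 and Itpr1, whereas Ppp1r17 had no count and Pcp2 had 12 counts in all. The summed CPM of the Purkinje markers was 15427 to 17129 in WT, 17124 to 19946 in KI/+ and 17642 to 19775 in KI/KI libraries. No member is among the markers of Purkinje cells, granule cells, interneurons, glia, endothelium, choroid plexus or blood that were examined. This was partly fixed beforehand, because the selection left out the markers Car8, Calb1, Itpr1, Gfap, Slc1a3, Fgfr3 and Slc6a11. Slc6a11, on the list of Bergmann glia and astrocytes, met both conditions, at 13.4 to 17.4 CPM in KI/KI and 30.8 to 51.9 in the other libraries. Many other markers had too few counts to be eligible. Summed markers of blood, of which 3 of 5 were at 0, were 27.4 to 39.0 CPM in WT, 32.0 to 40.1 in KI/+ and 24.6 to 27.9 in KI/KI libraries, and their part in the results was not tested. In bulk tissue, fewer cells that express a gene and less RNA per cell cannot be told apart. The replicate 1 libraries of the 3 genotypes stood apart from the rest. Their counts differed among themselves by a chi-square per degree of freedom of 1.43 to 2.42, but from each of the other 6 libraries by 7.01 to 11.2, while pairs of those 6 gave 1.26 to 6.82. The labels name nothing that these 3 libraries share beyond their number and a name prefix, L1, that the replicate 2 libraries also carry. The calls of members below are also given without the replicate 1 libraries where they change. The deletion removes too little of Kcnd3 for its count, 104 over all libraries, to check the genotypes.

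Gene names and positions are those that GENCODE vM21 (mouse assembly GRCm38) gives for the deposited identifiers. The identifiers carried later versions than that annotation for 51992 of the 52029 that matched, although the labels name GRCm38. Some genes that nearly every cell uses had few or no counts under their own names, with 37 counts for Actb and 0 for Eef1a1 over all libraries, and a mean of at least 10 counts was reached by 93 of 263 genes from families used in most cells. Among the nearest such genes on the chromosome of each member, at most 10, between 1 and 5 reached this level, with a median of 4. Whether the counted gene positions match the assembly of the alignment was not tested, and each name below is to be read with that limit.

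Because the members were selected on KI/KI against the other libraries, their low values in KI/KI mice describe them and are not evidence of a difference. Having all KI/KI libraries lowest, at any ratio, was shared by 183 of the 6416 genes, or 2.85%, and having all of them highest by 230. With the mean ratio at or beyond the limit in both directions, 26 genes were lowest and 6 were highest. The plot of all genes without overlap shows where the members lie among them.

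**Figure D1:**
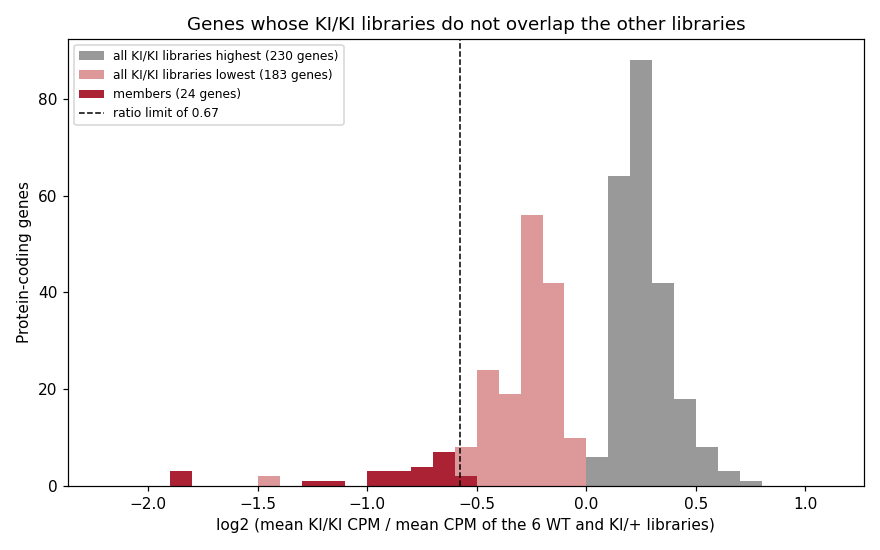
Histogram of the log2 ratio of the mean KI/KI CPM to the mean CPM of the 6 WT and KI/+ libraries, for the 230 genes with all KI/KI libraries highest and the 183 with all of them lowest, with the 24 members in dark red and the limit of 0.67 as a dashed line. Most genes without overlap lie close to 0, with a median of -0.27 for the lowest and 0.25 for the highest, and the members fill the left tail together with Tox and Slc6a11, which form the light bar left of the limit.

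The mean of the KI/KI libraries ranged from 26.8% of the mean of the others, for Siae, to 66.8%, for Ogfod1, with a median of 59.2%. The margin was narrow. The lowest WT or KI/+ library was 1.01 to 1.31 times the highest KI/KI library, with a median of 1.14, and it was under 1.2 times for 14 members. Just inside the ratio limit were Ogfod1, Slc35d1 and Car7, at 66.8%, 66.4% and 65.6%. Just outside were Abca6, Adssl1 and Ace, at 68.0%, 68.1% and 68.5%. Summed over the members, WT libraries held 1179 ± 22.0 CPM (SD, n = 3), KI/+ libraries 1146 ± 169 and KI/KI libraries 639.7 ± 74.3.

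**Figure D2:**
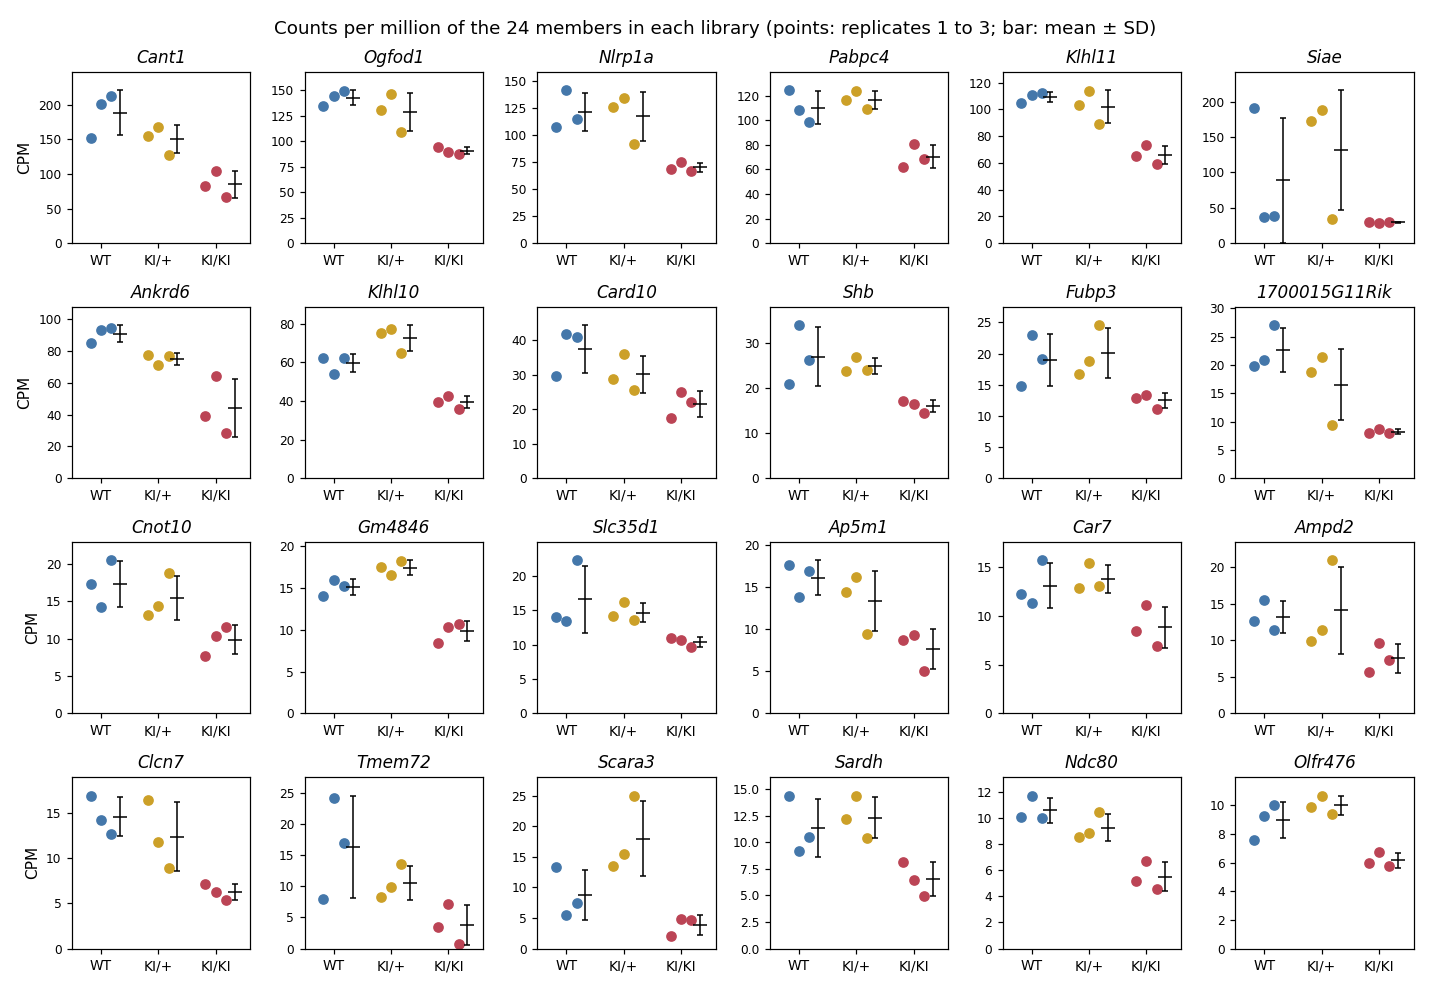
CPM of each of the 24 members in the 9 libraries, with a panel per gene ordered by mean CPM, points for replicates 1 to 3 of each genotype and a bar for the mean ± SD. Every y axis starts at 0 and has its own scale. In each panel the red KI/KI points lie below all blue WT and yellow KI/+ points, as the selection requires, and the panel of Siae shows 3 high and 3 low libraries among the other 6.

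The members that take part in making and removing proteins were Pabpc4, Ogfod1, Klhl10, Klhl11 and Cnot10. Pabpc4, a cytoplasmic poly(A)-binding protein, had 125, 108 and 98.5 CPM in WT, 117, 124 and 109 in KI/+ and 62.0, 80.4 and 68.7 in KI/KI libraries. WT and KI/+ libraries of Pabpc4 overlapped, and its highest KI/KI library lay under them. Ogfod1, which hydroxylates a proline of the ribosomal protein Rps23, had 135, 144 and 149 CPM in WT, 131, 146 and 109 in KI/+ and 94.5, 89.7 and 87.9 in KI/KI libraries. The low KI/+ value of Ogfod1 was replicate 3, the KI/+ library nearest to the KI/KI range for several members.

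Klhl10 and Klhl11 encode kelch-repeat proteins, adaptors that bring substrates to Cul3 ubiquitin ligases, and Klhl10 is known for its role in sperm development. Klhl10 had 62.3, 54.1 and 62.3 CPM in WT, 75.1, 77.3 and 64.7 in KI/+ and 39.7, 42.6 and 36.1 in KI/KI libraries. All 3 KI/+ libraries of Klhl10 were above all 3 WT libraries. Klhl11 had 105, 111 and 112 CPM in WT, 103, 114 and 89.3 in KI/+ and 65.5, 73.1 and 59.5 in KI/KI libraries. Its WT and KI/+ libraries overlapped. The pair are neighbours on chromosome 11, with Klhl10 at 100441917 to 100457022 on the plus strand and Klhl11 at 100462614 to 100472741 on the minus strand (GRCm38). Their 3′ ends face each other across 5.592 kb, with 0 protein-coding genes between them. No other pair of members lay closer than 4.32 Mb, the distance from Sardh to Fubp3. Cnot10, a subunit of the CCR4-NOT complex that shortens poly(A) tails, had 14.2 to 20.5 CPM in WT, 13.2 to 18.8 in KI/+ and 7.69 to 11.5 in KI/KI libraries.

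Cnot10 also has a RefSeq promoter window, which is not printed, and the neighbours Klhl10 and Klhl11 start from separate promoters. RefSeq windows (GRCm38.p6, 250 bases before to 50 after the start) are shown for Pabpc4, Ogfod1, Klhl10 and Klhl11. The values of these 4 members were given library by library above, and their windows follow. They are printed 5′ to 3′ on the strand of the gene, and capitals mark matches on either strand to the GC box GGGCGG, the CAAT box motif CCAAT, the TATA box motif TATAAA or the E-box CACGTG. A GC box on the other strand appears as CCGCCC, and a CAAT box motif there as ATTGG. None of the motifs contains another.
Klhl10, plus strand, chr11:100441674-100441973: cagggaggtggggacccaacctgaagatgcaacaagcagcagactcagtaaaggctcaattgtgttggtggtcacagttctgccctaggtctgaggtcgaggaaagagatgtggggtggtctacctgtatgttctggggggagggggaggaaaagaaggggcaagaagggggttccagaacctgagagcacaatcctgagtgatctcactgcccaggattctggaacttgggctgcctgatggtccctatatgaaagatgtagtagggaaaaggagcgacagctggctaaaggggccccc
Klhl11, minus strand, chr11:100472733-100473032: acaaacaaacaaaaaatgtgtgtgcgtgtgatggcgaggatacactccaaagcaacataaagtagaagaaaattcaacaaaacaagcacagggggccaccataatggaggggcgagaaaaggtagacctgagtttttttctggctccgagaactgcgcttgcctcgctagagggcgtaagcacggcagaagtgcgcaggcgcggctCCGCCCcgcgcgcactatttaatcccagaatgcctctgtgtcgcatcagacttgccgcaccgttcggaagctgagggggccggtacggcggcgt
Pabpc4, plus strand, chr4:123282661-123282960: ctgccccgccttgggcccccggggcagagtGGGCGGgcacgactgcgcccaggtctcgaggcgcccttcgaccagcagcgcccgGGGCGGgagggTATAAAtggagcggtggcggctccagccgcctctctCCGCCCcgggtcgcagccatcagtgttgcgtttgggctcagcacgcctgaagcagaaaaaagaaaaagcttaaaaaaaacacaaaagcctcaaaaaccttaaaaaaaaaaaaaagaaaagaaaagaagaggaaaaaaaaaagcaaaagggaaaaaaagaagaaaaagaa
Ogfod1, plus strand, chr8:94036948-94037247: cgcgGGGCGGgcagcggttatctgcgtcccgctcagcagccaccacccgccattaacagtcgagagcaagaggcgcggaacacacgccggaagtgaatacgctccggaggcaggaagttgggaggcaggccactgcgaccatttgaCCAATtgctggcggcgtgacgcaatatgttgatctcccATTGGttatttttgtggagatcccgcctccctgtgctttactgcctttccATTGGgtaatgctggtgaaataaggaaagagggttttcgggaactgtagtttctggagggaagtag
The windows differ in composition. The Klhl10 window holds 2 CpG dinucleotides and none of the 4 motifs, whereas the Klhl11 window holds 23 CpG and 1 GGGCGG match. Pabpc4 has 3 GGGCGG matches and a TATAAA, and Ogfod1 has 1 GGGCGG match and 3 CCAAT matches. Of the 24 members 20 matched an entry, with 26 windows in all. GGGCGG was present for 65% of those members, against 64.2% of the 5031 eligible genes with an entry and 35.6% of all 32817 promoters. Members and eligible genes were counted by a match in any of their windows, but all promoters window by window. The shares of all promoters are therefore in another unit. CCAAT was present for 4 of the 20 members, or 20%, against 41.8% of eligible genes and 37.4% of all promoters. TATAAA and CACGTG were each present for 2 members, or 10%, against 9.04% and 10.6% of eligible genes and 13.6% and 7.15% of all promoters. A match describes the sequence and not the binding of a factor. The Pabpc4 window lies inside the vM21 gene, which begins upstream at 123262351 on chromosome 4 and ends at 123298925.

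Members of the ER, the Golgi and the endosomal and lysosomal compartments were Cant1, Slc35d1, Siae, Clcn7 and Ap5m1. Cant1, a nucleotidase of the ER and Golgi that hydrolyses UDP and is needed for proteoglycan synthesis, was the member with the highest mean level in CPM. It had 151, 200.3 and 213 CPM in WT, 155, 167 and 128 in KI/+ and 83.1, 105 and 66.8 in KI/KI libraries. Its lowest WT library lay inside the KI/+ range, and its KI/+ mean was between those of WT and KI/KI mice. Slc35d1, which carries nucleotide sugars into the ER, had 13.4 to 22.2 CPM in WT, 13.6 to 16.2 in KI/+ and 9.59 to 10.9 in KI/KI libraries.

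Siae, an esterase that removes acetyl groups from sialic acids, had the lowest ratio and the largest spread among the other libraries. It had 191, 36.5 and 38.8 CPM in WT, 172, 188 and 33.4 in KI/+ and 29.8, 28.4 and 30.3 in KI/KI libraries. A single WT library and 2 KI/+ libraries were thus at 172 CPM or above, and the other 3 had 33.4 to 38.8 CPM, just above the KI/KI libraries. Its highest WT or KI/+ library was 5.72 times its lowest, and its lowest was 1.10 times the highest KI/KI library. Clcn7, the chloride-proton exchanger of lysosomes, had 12.6 to 16.9 CPM in WT, 8.88 to 16.5 in KI/+ and 5.37 to 7.19 in KI/KI libraries. Ap5m1, a subunit of an adaptor complex of late endosomes, had 13.8 to 17.6, 9.40 to 16.2 and 4.99 to 9.30 CPM in the same order, and its lowest KI/+ library was 1.01 times its highest KI/KI library.

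Members known from signalling and innate immunity were Ankrd6, Shb, Card10, Nlrp1a and Scara3. Ankrd6, a scaffold of Wnt signalling also called Diversin, had 85.0, 93.4 and 94.6 CPM in WT, 77.4, 71.0 and 76.7 in KI/+ and 39.2, 64.4 and 28.8 in KI/KI libraries. It was the only member with all KI/+ libraries below all WT libraries, and its KI/KI libraries varied more than those of the other members above 50 CPM, with an SD of 18.3 CPM around a mean of 44.1, apart from Cant1 with an SD of 19.0 around 84.8. Nlrp1a, an inflammasome sensor, had 108, 142 and 115 CPM in WT, 126, 134 and 91.9 in KI/+ and 68.7, 75.2 and 66.4 in KI/KI libraries. Its WT and KI/+ libraries overlapped.

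Scara3, a class A scavenger receptor linked to oxidative stress, had 13.3, 5.45 and 7.41 CPM in WT, 13.5, 15.5 and 25.1 in KI/+ and 1.98, 4.91 and 4.60 in KI/KI libraries. All of its KI/+ libraries were above all WT libraries by a narrow margin, and the values rest on 8 to 48 counts per library. Shb, an adaptor with an SH2 domain, had 20.9 to 33.9 CPM in WT, 23.7 to 26.9 in KI/+ and 14.6 to 17.1 in KI/KI libraries. Card10, a scaffold of NF-kappaB signalling, had 29.5 to 41.9, 25.6 to 36.1 and 17.6 to 25.1 CPM in the same order, and its lowest KI/+ library was 1.02 times its highest KI/KI library.

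The metabolic enzymes among the members were Ampd2, Sardh and Car7. Ampd2, which deaminates AMP in purine turnover and is mutated in a human pontocerebellar hypoplasia, had 11.3 to 15.5 CPM in WT, 9.88 to 20.9 in KI/+ and 5.70 to 9.56 in KI/KI libraries. It is the only member within 10 Mb of Kcnd3, at a distance of 2.40 Mb on chromosome 3, where 56 eligible genes lie and 2 had all KI/KI libraries lowest. Sardh, the mitochondrial sarcosine dehydrogenase, had 9.22 to 14.4, 10.4 to 14.3 and 4.99 to 8.18 CPM in WT, KI/+ and KI/KI libraries, and Car7, a cytosolic carbonic anhydrase, had 11.3 to 15.7, 12.8 to 15.5 and 6.91 to 11.1 CPM.

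Tmem72, a membrane protein, had 7.92, 24.3 and 17.0 CPM in WT, 8.24, 9.93 and 13.6 in KI/+ and 3.47, 7.24 and 0.77 in KI/KI libraries. Its WT libraries spanned the KI/+ range, and the lowest KI/KI value is 2 counts. 1700015G11Rik, a short gene of 397 exonic bases, had 19.8 to 27.0, 9.40 to 21.3 and 7.94 to 8.79 CPM. Per kilobase of exon it was the highest member, with a mean of 39.8 CPM over all libraries, followed by Klhl11 with 38.6 and Cant1 with 32.4. The remaining members, named only to complete the 24, were Ndc80 of the kinetochore, the nucleic acid-binding protein Fubp3, the olfactory receptor Olfr476 and the predicted gene Gm4846. Their KI/KI means were 5.51, 12.5, 6.14 and 9.84 CPM, against 9.95, 19.5, 9.46 and 16.3 CPM over the other libraries. Gm4846 was the third member, beside Klhl10 and Scara3, with all KI/+ libraries above all WT libraries. Olfr476 and Nlrp1a belong to families of near copies, and how reads that match several copies were counted is not given in the sources used here, so their counts are uncertain.

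The comparison of KI/+ with WT mice was not itself used for the selection, although both conditions drew on the values of these libraries, which had to lie above every KI/KI library and to have a high enough joint mean. In KI/+ against WT mice, 0 of 24 members were DEGs by edgeR, with a limit of 1.3 for the fold-change and of 0.2 for the FDR, as were 0 of all 10842 genes tested, or 0%. The lowest FDR over all genes was 0.998. At an unadjusted p under 0.05 there were 459 genes, or 4.23%, and 3 of them were members. DESeq2 also called 0 genes and gave 250 genes, with the same 3 members, at an unadjusted p under 0.05.

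Those 3 members were Scara3, Klhl10 and Cant1, and they differed in direction. Scara3 was 0.98 ± 0.33 (SE) higher in KI/+ mice on the log2 scale by edgeR (unadjusted p = 0.00833, FDR 0.998). By the same edgeR fit Klhl10 was 0.31 ± 0.12 higher (unadjusted p = 0.0165, FDR 0.998). Cant1 was lower by edgeR, with a log2 fold change of -0.29 ± 0.14 (unadjusted p = 0.0463, FDR 0.998). The next 2 by p were 1700015G11Rik, at -0.38 ± 0.23, and Card10, at -0.27 ± 0.17, both with intervals that include 0. None of the 5 passed the FDR criterion. Without WT replicate 1, Siae and Scara3 were called, and the calls over all genes in that fit are not given here. Without a count filter Siae was the only member among 38 of 30626 genes called. With the replicate 1 libraries of all genotypes left out, edgeR called 59 of 10743 genes, Scara3 among them and the only member, at a log2 fold change of 1.63 (FDR 0.0636).

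Over the 24 members the log2 fold change between KI/+ and WT mice ranged from -0.62, for Tmem72, to 0.98, for Scara3, with a median of -0.08 beside 0.00 for all genes. It was negative for 14 and positive for 10. The 95% confidence interval included 0 for 21 members, and its half-width ran from 0.21, for Ogfod1, to 1.04, for Siae, so differences up to that size could not be told from none. In CPM, the KI/+ mean was below the WT mean for 58.3% of members and 53.9% of eligible genes. WT and KI/+ libraries did not overlap for 4 members, and the same was found for 8.6% of eligible genes.

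**Figure D3:**
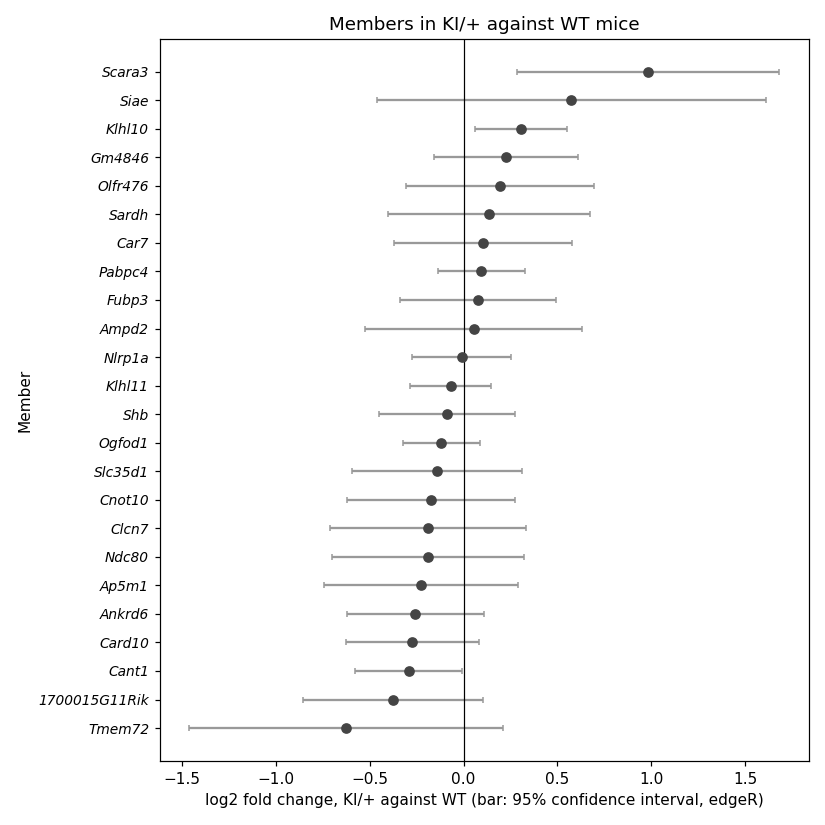
Log2 fold change of each member in KI/+ against WT mice from the edgeR fit of all 9 libraries, with 95% confidence intervals, ordered from the lowest. Points lie on both sides of 0, and only the intervals of Scara3, Klhl10 and Cant1 leave it out.

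The DEG counts of the KI/KI comparisons are given for completeness, since the members were chosen on them. Against WT mice 15 of 24 met the criteria, where 1.15% of all genes tested were called lower, and against KI/+ mice 11 met them, where 0.304% were. Both comparisons share the KI/KI libraries. Without KI/KI replicate 3, where the calls over all genes are not given here, the member counts were 7 and 6. They were 15 and 8 with the replicate 1 libraries left out, and 22 and 19 with a term for these libraries in the fit. Over all genes and in either direction, edgeR called 144 and 42 in the main fit. It called 331 and 93 with the replicate 1 libraries left out, and 268 and 157 with the term. In the main fit 8 members were called in both comparisons, namely 1700015G11Rik, Cant1, Ankrd6, Nlrp1a, Klhl10, Pabpc4, Klhl11 and Ogfod1. Another 7 were called against WT mice only and 3, Siae, Scara3 and Gm4846, against KI/+ mice only. This split depends on the limit and does not show that the comparisons differ. By edgeR, Gm4846 against WT mice (FDR 0.204) and Clcn7 against KI/+ mice (FDR 0.21) just missed it. Siae had a log2 fold change of -1.65 ± 0.57 against WT and -2.23 ± 0.55 against KI/+ mice. Without WT replicate 1 the first of these was -0.33 (edgeR, FDR 0.847), so it rested on that library. For Cant1 the values were -1.13 ± 0.14 and -0.84 ± 0.14, for Klhl10 -0.59 ± 0.12 and -0.90 ± 0.12, and for Pabpc4 -0.66 ± 0.11 and -0.76 ± 0.11. The 6 members called in neither were Sardh, Ampd2, Fubp3, Olfr476, Car7 and Slc35d1, each with 422 counts or fewer in total. With the replicate 1 libraries left out, 1700015G11Rik, Ankrd6 and Gm4846 were no longer called against KI/+ mice. Ndc80 and Cnot10 were then no longer called against WT mice, whereas Fubp3 and Slc35d1 were.

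Other single libraries stood out among the members. KI/+ replicate 3, the shallowest library, was the lowest of the 6 WT and KI/+ libraries for 9 members, or 37.5%, against 20.4% of eligible genes. Its summed CPM over the members was 957.5, against 1196 and 1285 in the other KI/+ libraries. KI/KI replicate 3 was the lowest KI/KI library for 16 members, or 66.7%, against 27.8% of eligible genes. KI/KI replicate 2 was the lowest for 1 member, or 4.17%, against 26.5% of eligible genes. The members were selected on the values of these same libraries and the eligible genes were not. The shares are therefore a description, and the eligible genes are not a matched reference. In the labels and column names, replicate 3 of each genotype has a library prefix other than the L1 of the other 6 libraries, and what the prefix stands for is not given. Within the L1 libraries alone, 0 members were called in KI/+ against WT mice and 1, Klhl10, had an unadjusted p under 0.05 by edgeR. Over all 11099 genes tested in these libraries, 0 were called and 309 had an unadjusted p under 0.05.

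**Figure D4:**
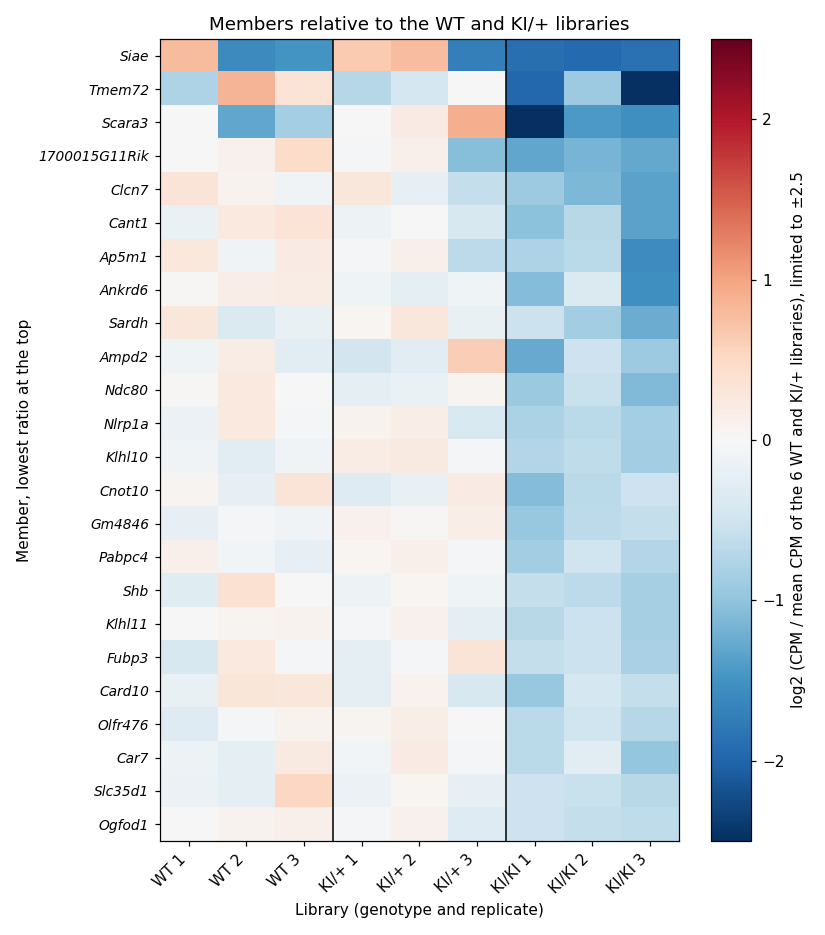
Heatmap of log2 CPM of each member relative to its mean over the 6 WT and KI/+ libraries, with the libraries in columns by genotype and replicate, and the members in rows from the lowest ratio down. The color scale is limited to 2.5 in either direction. The 3 KI/KI columns are blue throughout, by selection. Among the other columns KI/+ replicate 3 is blue for Siae, 1700015G11Rik, Clcn7 and Ap5m1 and red for Scara3 and Ampd2. It is not alone, since WT replicates 2 and 3 are also blue for Siae, and WT replicate 2 is blue for Scara3 and red for Tmem72.

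Among lists of genes with related roles, Rnf123 and Icmt were the only genes called that were not members, and the members in the lists were chosen on these comparisons. The lists were drawn up from roles named in the paper, which reports Rnf123 and Icmt as down-regulated in these same data. It reports the members Pabpc4, Ogfod1, Cant1, Klhl10 and Klhl11 as down-regulated too. The calls of Rnf123 and Icmt therefore follow from the choice of lists and are a description. Of 24 genes of E3 ubiquitin ligation, 17 were tested, and edgeR called Rnf123, Klhl10 and Klhl11 lower in KI/KI against WT and against KI/+ mice. DESeq2 gave an adjusted p for 8 of the 17 in these comparisons, Rnf123 and Klhl10 not among them, and called Klhl11. The paper, which used another version of DESeq2, has Rnf123 and Klhl10 among its DEGs. The reason for this difference was not tested. Without the members the median log2 fold change of the list was -0.02 and -0.06, beside 0.01 and 0.00 for all genes. Rnf123, a ubiquitin ligase subunit, was not a member because KI/+ replicate 3, at 17.8 CPM, lay within the KI/KI range of 8.82 to 21.1 CPM, while its other WT and KI/+ libraries had 63.7 to 81.4 CPM. Of 17 genes of poly(A) binding and translation, 10 were tested, and Pabpc4 and Ogfod1 were the only ones called, lower in both KI/KI comparisons by edgeR and by DESeq2.

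For CAAX processing, the trimming and methylation of prenylated proteins, 3 of 6 genes were tested and Icmt, its methyltransferase, was called lower in both by either tool. Icmt had no overlap between KI/KI and the other libraries, at 295 to 326 against 363 to 521 CPM, but its ratio of 71.4% was above the limit. Of 10 nucleotidases and glycosylation enzymes of the ER and Golgi, 6 were tested and Cant1 was the only one called, lower in both by either tool. Of 19 genes of the unfolded protein response 7 were tested, and of 15 of Golgi structure and transport 8 were, and edgeR called 0 of each in either KI/KI comparison. DESeq2 also called 0, but gave an adjusted p there for only 3 of the 7 and 5 of the 8. At an unadjusted p under 0.05, edgeR gave Pdia4 of the first list and Copb1 and Sec24c of the second against WT, and Canx and Pdia4 of the first and Golgb1 of the second against KI/+ mice. Their median log2 fold changes in KI/KI against WT mice were 0.13 and 0.03. In KI/+ against WT mice 0 genes of any of the 6 lists were called by edgeR or DESeq2, and Klhl10, Cant1 and Canx, a chaperone of the ER, had an unadjusted p under 0.05 by edgeR.

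Position and gene structure are given beside those of all eligible genes, with no test. The members lie on 12 chromosomes, with 4 on chromosome 11, or 16.7% against 9.04% of eligible genes, and 4 on chromosome 4. Their median exonic length was 5088 bases, against 4896 for eligible genes, and their median exonic GC content 48.9% against 50.6%. They had fewer counts, with a median total of 367 against 1164.5.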

How the data were processed

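RNA was sequenced from 9 libraries, 3 per genotype, with a stranded mRNA kit. Alignment and counting per gene were done by the authors with Rsubread, and the deposited values are raw counts without normalization. The labels name GRCm38, and the annotation and strand setting are not given in the sources used here. All 9 columns were used, and symbols came from GENCODE vM21. The members, gene lists and naming rule were chosen with earlier results of these data known, and no set test was run.

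Members were found from CPM over the column total. Counts of all genes were tested with edgeR 4.0.16 in R 4.3.3 (quasi-likelihood, TMM, its expression filter, all 9 libraries, genotype only), with Benjamini-Hochberg adjustment and the DEG criteria of the study, and with DESeq2 1.42.0 as an alternative. The scripts were tested on simulated counts. With 3 libraries per genotype, the edgeR p-values set a genotype difference against a spread estimated over all 9 libraries and partly shared across genes. In the main fit this spread includes the difference of the replicate 1 libraries. All 36 pairs of libraries differed beyond sampling noise, and the replicate 1 libraries stood apart as a set, so fits without them and with a term for them were added after seeing the data.

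Genes were named if they were among the 10 members with the lowest ratio, the 10 with the highest mean CPM, the 5 with the smallest p in KI/+ against WT mice, the 3 nearest the ratio limit on each side, within 10 Mb of Kcnd3, or in a gene list or the paper's text. The alternatives were RLE normalization, no count filter, an FDR under 0.05, the replicate number as a block, the L1 libraries alone, other limits of the rule, and each library left out.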

Additional observations from a re-analysis of the deposited data

How the results depend on the processing

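In KI/+ against WT mice, 1 member was called without a count filter, Siae, and leaving out each library gave 0 to 2, the 2 being Siae and Scara3 without WT replicate 1. RLE normalization, the replicate block, the L1 libraries alone, an FDR under 0.05 and DESeq2 gave 0. In KI/KI against WT mice, 15 were called, against 8 at an FDR under 0.05, 8 with the L1 libraries alone and 6 by DESeq2, and 7 to 19 without 1 library (8 without WT replicate 2 or 3, 7 without KI/KI replicate 3). In KI/KI against KI/+ mice, 11 were called, against 7 at an FDR under 0.05 and 7 by DESeq2, and 6 to 14 without 1 library (7 without KI/+ replicate 1 or KI/KI replicate 1, 6 without KI/+ replicate 2 or KI/KI replicate 3). DESeq2 left only 7 members with an adjusted p in either KI/KI comparison. With the replicate block, 0, 22 and 20 members were called in the 3 comparisons in the same order. Calls over all genes are not given here for the replicate block or for fits without 1 library. Over all genes, DESeq2 called 41 in KI/KI against WT mice and 28 in KI/KI against KI/+ mice. The L1 libraries alone gave 28 and 32 there, and the fit without a count filter called 38 genes in KI/+ against WT mice. The labels name nothing that same-numbered libraries share, apart from the prefix L1 of replicates 1 and 2. Deviations of same-numbered libraries correlated at -0.02 to 0.27, over 0.1 in 6 of 9 pairs, which include the 3 pairs of replicate 1 libraries. In alternatives chosen after seeing the data, leaving out the replicate 1 libraries of all genotypes gave 1, 15 and 8 members called, and a term for these libraries in the fit gave 0, 22 and 19. Over all genes, the first of these fits called 59, 331 and 93, and the second 0, 268 and 157.

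The rule gave 24 genes, against 41 at 100 counts, 10 at 500 counts, 176 with no ratio limit, and 20 to 58 without 1 library. Without KI/KI replicate 2 there were 58, of which 21 were members. With the replicate 1 libraries left out there were 35, of which 14 were members, with the minimum of 200 counts held over fewer libraries. CPM after TMM normalization gave 30, with all 24 members among them. With the L1 libraries alone the log2 fold change between KI/+ and WT mice reversed for Ampd2 (-0.38), Nlrp1a (0.0872), Klhl11 (0.0253), Fubp3 (-0.0565), Slc35d1 (0.16) and Ogfod1 (0.0062). Without 1 library it ran from -0.28 to 0.25 for Ampd2, -0.0627 to 0.23 for Fubp3, -0.14 to 0.0172 for Klhl11, -0.10 to 0.13 for Nlrp1a, -0.0058 to 0.39 for Sardh, -0.23 to 0.10 for Shb and -0.27 to 0.10 for Slc35d1. The causes were not tested. Members under 30 CPM, 16 of 24, rest on few counts, which limits what their values can show.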

Other observations

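The mirrored rule, with all KI/KI libraries highest and the mean ratio beyond the same limit, was met by 6 protein-coding genes, which are named here after their values were seen. They were Zkscan17, D17Wsu92e, Xkr6, Gm5475, Slc22a2 and 2700049A03Rik. They were selected on KI/KI mice in the same way as the members, so their direction is a description.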
